A study of Mus musculus with 18 samples.

Results

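The proteasome genes of the mouse liver were followed across the zones of the lobule and across feeding and fasting. They are the genes of the deposited table whose mouse symbol begins Psma to Psmg followed by a number, pseudogene symbols ending in -ps left out. The pattern took 53 symbols, of which 3 were such pseudogenes, and left 50 members among the 28030 genes of the table. By role they were 8 subunits of the 20S alpha ring, 7 standard subunits of the 20S beta ring, 4 inducible or tissue-specific beta subunits, 6 ATPases and 11 non-ATPase subunits of the 19S regulatory particle, 7 assembly factors, 6 activators or inhibitors, and Psmc3ip, a meiotic recombination factor that shares the prefix but is not a subunit. RNA was sequenced from hepatocytes collected after digitonin perfusion from either end of the liver lobule, pericentral or periportal, in 6 groups of 3 libraries. All mice were wild-type male C57BL/6J animals aged 12 weeks on chow, and all had been trained for 3 days to fast overnight for 16 h and eat for 8 h. Fed animals were killed at 13:00 after 4 h of feeding with 20% sucrose water, 8 h fasted animals at 21:00, and 24 h fasted animals at 13:00 on the next day. The 8 h fast and the evening clock hour therefore cannot be told apart.

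The proteasome is the large protease of the cytosol and nucleus that degrades proteins tagged with ubiquitin. Its 20S core is a barrel of alpha and beta rings with the protease sites inside. The 19S particle caps the barrel, binds ubiquitin, removes it, unfolds the substrate with a ring of ATPases and feeds it into the core. Dedicated chaperones build both parts and leave the finished particle. The activators PA28 and PA200 can replace the 19S cap, and cells exposed to interferon, like immune cells at rest, exchange the standard protease subunits for inducible ones. When proteasome activity is too low, the transcription factor NRF1 (Nfe2l1) raises most subunit genes together.

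Library totals ran from 1.84e+07 to 2.64e+07 estimated counts, and 15251 to 15958 genes had a count. Of the 50 members, 48 passed the filter on low counts. Psmb11, a thymus subunit, and Psme2b, a copy of Psme2, did not, with at most 12 and 9 counts in any library. The zone labels were checked by marker genes. Pericentral markers (Glul, Cyp2e1, Cyp1a2 and Oat) summed to 9305 to 18314 CPM (counts brought to a common library size) in pericentral and 420.0 to 2044 CPM in periportal libraries, and periportal markers (Cyp2f2, Hal, Gls2 and Sds) to 278 to 1793 and 3134 to 5413 CPM. Replicate 2 of the 24 h fasted pericentral group stood apart, with 111 CPM of Glul where the other 8 pericentral libraries had 552 to 1375 CPM. Its Cyp2f2 (793 CPM), Hal (466 CPM), Gls2 (320 CPM) and Sds (215 CPM) were the highest of the pericentral libraries. Its Cyp1a2 (202 CPM) and Oat (257 CPM) were the lowest, and its Cyp2e1 (10266 CPM) lay within the range of the others. Zone results are therefore also given without this library. Hepatocyte markers (Alb, Apoa1, Ttr, Serpina1c and Tat) summed to 58160 to 98755 CPM in pericentral and 112353 to 189543 CPM in periportal libraries. Endothelial markers summed to 2.63 to 9.29 CPM and 3.43 to 25.8 CPM, leukocyte markers to 0.372 to 4.60 CPM and 0.888 to 16.6 CPM, and stellate cell markers to 0.696 to 4.94 CPM and 0.969 to 14.5 CPM, in the same order. Cholangiocyte markers (Krt19, Krt7, Epcam and Sox9) summed to 13.9 to 27.7 CPM in pericentral and 21.2 to 33.7 CPM in periportal libraries. Most of this sum was Krt7 and Sox9, with Epcam at 0 in every library and Krt19 at most at 0.506 CPM. The part of these other cell types in the zone differences was not tested.

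Upstream sequence is shown for 4 members on which the results turn. Psmd9 is the assembly factor that rose with fasting, Psmd5 the assembly factor and Psmd2 the 19S subunit that fell, and Psmb5 the protease subunit whose level did not pass the fasting tests. Each line gives the 250 bases before the RefSeq start site (GRCm38.p6) on the strand of the gene, 5′ to 3′, and capitals mark a match to 1 of the motifs searched.
Psmd9, chr5:123227940-123228189, plus strand: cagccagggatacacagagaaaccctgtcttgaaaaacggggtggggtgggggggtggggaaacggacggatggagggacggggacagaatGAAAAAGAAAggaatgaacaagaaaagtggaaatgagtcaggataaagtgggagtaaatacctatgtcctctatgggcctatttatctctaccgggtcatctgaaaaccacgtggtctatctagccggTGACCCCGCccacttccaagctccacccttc
Psmd5, chr2:34870963-34871212, minus strand: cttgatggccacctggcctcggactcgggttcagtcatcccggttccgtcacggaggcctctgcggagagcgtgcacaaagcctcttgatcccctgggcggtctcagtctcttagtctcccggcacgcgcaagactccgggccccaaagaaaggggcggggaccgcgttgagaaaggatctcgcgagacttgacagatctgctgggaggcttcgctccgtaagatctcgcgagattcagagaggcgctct
Psmb5, chr14:54617996-54618245, minus strand: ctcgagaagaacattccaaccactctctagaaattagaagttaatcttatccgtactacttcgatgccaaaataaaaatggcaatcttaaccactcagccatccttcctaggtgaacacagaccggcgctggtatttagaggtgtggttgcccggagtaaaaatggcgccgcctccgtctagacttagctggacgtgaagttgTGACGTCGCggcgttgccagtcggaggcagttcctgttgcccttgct
Psmd2, chr16:20651402-20651651, plus strand: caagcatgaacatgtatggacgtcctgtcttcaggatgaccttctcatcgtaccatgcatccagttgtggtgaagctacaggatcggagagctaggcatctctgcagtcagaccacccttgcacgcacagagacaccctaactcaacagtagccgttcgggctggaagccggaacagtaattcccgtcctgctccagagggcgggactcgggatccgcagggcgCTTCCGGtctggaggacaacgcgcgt

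The start sites of Psmd9, Psmd5 and Psmb5 lie inside the gene spans of GENCODE vM21, which begin farther upstream. The motifs were searched on both strands of windows from 250 bases before to 50 bases after the start, which RefSeq gave for 42 members in 45 windows and for all genes in 32851 windows. The antioxidant response element TGACNNNGC, the kind of site that NRF1 binds, was in 13.3% of member windows and 12.4% of all windows. It lay 47 bases before the start of Psmb5 and 31 bases before that of Psmd9. The ETS site CCGGAAG was in 35.6% of member windows and 8.86% of all, Psmd2 among them. The interferon response element (GAAA, any 2 bases, GAAA) was in 11.1% and 3.44%, with 1 match in Psmd9, the CCAAT box in 33.3% and 37.4%, and the FOXO site GTAAACA in 0% and 3.65%. Psmd5 held none of the 5. These are letter matches, not measured binding.

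Proteasome genes were higher in pericentral than in periportal hepatocytes, across the alpha ring, the standard beta ring and the 19S particle. The summed level of the 50 members was 3009 to 3434 CPM in the 9 pericentral libraries and 2521 to 2894 CPM in the 9 periportal ones, so that the zones did not overlap, and the ratio of the means was 1.16. Averaged over the 3 feeding states, 28 of 48 members were lower on the periportal side by edgeR's quasi-likelihood test (adjusted p under 0.05), against 9.96% of all 12477 genes tested. Psmg2 alone was called higher, against 10.3% of all genes. The median log2 fold change, periportal over pericentral, was -0.19 for the members and 0.00 for all genes, and 42 of 48 members were below 0. The differences were small, with the lowest at -0.52 (Psmf1, a proteasome inhibitor) and the called members between there and 0.32 (Psmg2).

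The same direction was seen in each feeding state, with fewer members called. In fed mice 12 members were called lower on the periportal side and 0 higher (all genes 4.13% and 3.89%), after an 8 h fast 12 and 0 (3.42% and 3.72%), and after a 24 h fast 2 and 0 (2.47% and 1.70%). By DESeq2 and limma-voom, too, 0 members were higher in any state, and by each tool 1, 1 and 0 members were higher at an unadjusted p under 0.05. The median log2 fold changes were -0.20, -0.20 and -0.15. All 3 pericentral libraries were above all 3 periportal ones for 23 of 48 members in fed mice (all genes 13.9%), for 24 after 8 h (11.7%) and for 18 after 24 h (11.7%). For 13 members this held in each of the 3 states (all genes 3.34%). Psma5 and Psmd5 were called in all 3 states, and Psma1, Psma7, Psmd3, Psmd14, Psme1 and Psmf1 in exactly 2.

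These counts rest on 3 libraries a group. Without the 24 h fasted pericentral replicate 2, 26 members were lower and 1 higher on average, and 0 members were called at 24 h. The 24 h count was also 0 without 24 h pericentral replicate 3 or 24 h periportal replicate 1 or 3, and 1 without fed pericentral replicate 2, fed periportal replicate 2, 8 h periportal replicate 2, 24 h pericentral replicate 1 or 24 h periportal replicate 2. The fed count fell to 6 without fed pericentral replicate 2, 4 without fed pericentral replicate 3, and 4, 5 and 6 without fed periportal replicates 1, 2 and 3. The 8 h count fell to 7 without 8 h pericentral replicate 1, 7 without 8 h periportal replicate 2 and 5 without 8 h periportal replicate 3. Of the 29 calls averaged over states, 22 stood under the 6 other settings that apply to them and without any 1 of the 18 libraries. The other 7, for Psma2, Psma6, Psmb1, Psmb3, Psmc1, Psmd8 and Psmd11, were lost in at least 1 of them. With the 20 most abundant genes left out of the scaling, 30 members were lower and 1 higher.

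**Figure D1:**
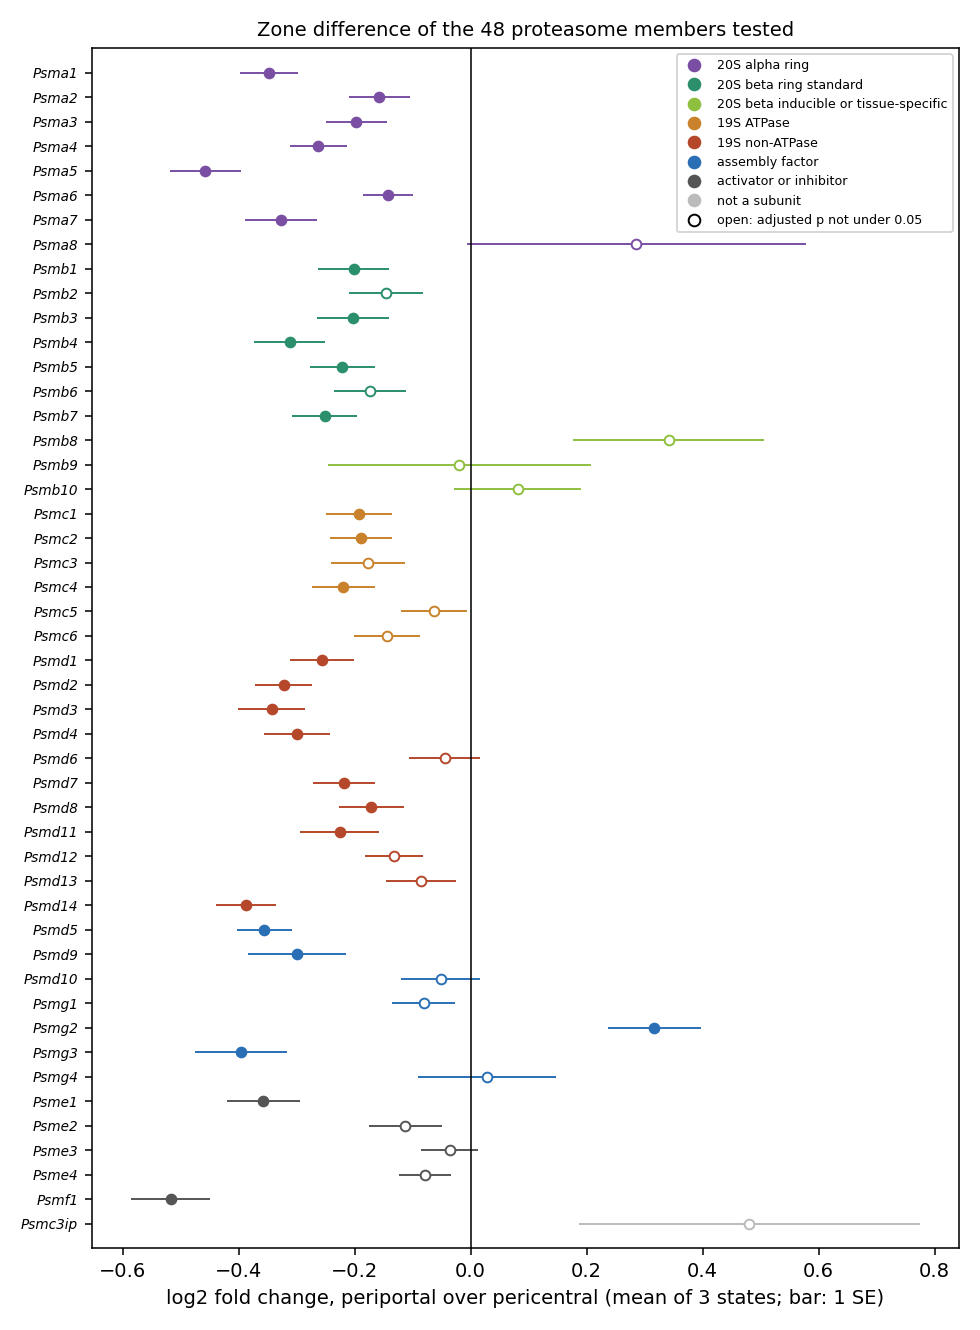
Log2 fold change, periportal over pericentral and averaged over the 3 states, for each of the 48 members tested, with bars of 1 standard error, coloured by role; filled points were called at an adjusted p under 0.05. Points lie left of 0 for 42 of 48 members, and Psmg2 is the filled point to the right.

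Fasting was followed by calls for 11 of 48 members after 8 h and 10 after 24 h, averaged over zones. After 8 h, 3 members rose (Psmd9, Psmd11 and Psmf1) and 8 fell (Psma1, Psmb10, Psmc2, Psmc5, Psmd1, Psmd2, Psmd5 and Psme3), where 13.8% of all genes rose and 12.5% fell. After 24 h, 2 rose (Psma5 and Psmd9) and 8 fell (Psma1, Psmc2, Psmd1, Psmd2, Psmd5, Psmd7, Psmd14 and Psme3), where 17.0% of all genes rose and 17.5% fell. The members' shares are near or below these backgrounds. The median log2 fold change of the members was -0.12 after 8 h and -0.02 after 24 h, against 0.01 and 0.01 for all genes. After 8 h, 39 of 48 members were below 0, among them 7 of 8 alpha, all 7 standard beta and all 6 ATPase subunits, where 6078 of 12477 genes were below 0. After 24 h, 30 of 48 members were below 0. The contrasts at 8 h and 24 h share the fed libraries. Over all contrasts between zones and states, 32 of 48 members were called at least once and 16 never. The share of all genes called at least once was not counted, so these counts have no background to be read against. Between 8 h and 24 h, 3 rose (Psma6, Psmc5 and Psmd9) and 3 fell (Psmd11, Psmd14 and Psmg2), where 10.0% of all genes rose and 10.2% fell.

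Several of these calls were close to the threshold. The 8 h call of Psmd1 was lost without the filter on low counts, with the replicate number as a block, when only its groups were fitted and with limma-voom, and that of Psmc2 in the same settings but the block. The call of Psmd1 was also lost when any 1 library was left out other than fed periportal replicate 1 or 2 or 24 h periportal replicate 1. That of Psmc2 was lost when any 1 was left out other than fed pericentral or periportal replicate 2, 8 h pericentral replicate 1 or 24 h periportal replicate 1. From 8 h to 24 h, the call of Psmg2 was lost in all 7 settings that keep every library, and when any 1 library was left out other than 8 h pericentral replicate 3, 8 h periportal replicate 1 or 24 h pericentral replicate 1 or 2. That of Psmc5 was lost without the filter on low counts and without fed periportal replicate 2, any 8 h pericentral replicate, 8 h periportal replicate 1 or 3, 24 h pericentral replicate 1 or 3 or 24 h periportal replicate 2 or 3. That of Psma6 was lost without the filter and without 8 h pericentral replicate 1 or 3, 24 h pericentral replicate 2 or 3 or 24 h periportal replicate 2. That of Psmd9 was lost when only its groups were fitted and without 8 h pericentral replicate 1 or 3, 8 h periportal replicate 1 or 2, 24 h pericentral replicate 3 or 24 h periportal replicate 2 or 3. The calls of Psmd11 and Psmd14 from 8 h to 24 h stood in all of these settings.

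Within a zone the counts were smaller. In pericentral hepatocytes 2 members rose and 1 fell after 8 h (all genes 7.27% and 6.57%), and 1 rose and 6 fell after 24 h (10.8% and 11.1%). On the periportal side 1 rose and 4 fell after 8 h (7.56% and 6.85%), and 2 rose and 3 fell after 24 h (9.59% and 10.0%). Between 8 h and 24 h, Psmd14 fell in pericentral (all genes 4.51%) and Psma6 rose in periportal hepatocytes (3.22%). Leaving out 1 library moved several of these counts: the 8 h pericentral count went to 1 without fed pericentral replicate 1, 2 or 3 or 8 h pericentral replicate 2, and the 8 h periportal count to 1 without fed periportal replicate 1 or 8 h periportal replicate 3 and 3 without 8 h periportal replicate 2. At 24 h the pericentral count went to 4 without fed pericentral replicate 3 or 24 h pericentral replicate 1, and the periportal count to 3 without fed periportal replicate 3 or 24 h periportal replicate 1. From 8 h to 24 h the averaged count went to 3 without 8 h pericentral replicate 1 or 3 or 24 h periportal replicate 3, and to 2 without 24 h pericentral replicate 3 or 24 h periportal replicate 2. The pericentral count from 8 h to 24 h went to 0 without 24 h pericentral replicate 3, and to 2 without fed pericentral replicate 2, fed periportal replicate 3, 8 h periportal replicate 1 or 24 h pericentral replicate 1. The periportal call, Psma6 alone, was lost when any 1 library other than fed pericentral replicate 2 was left out.

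No member's response to fasting was called different between the zones. The difference of the change, periportal minus pericentral, gave 0 of 48 calls at 8 h and 0 at 24 h with edgeR, DESeq2 and limma-voom, and 1 member at an unadjusted p under 0.05 in each by each tool. Over all genes edgeR called 0% at 8 h and 0.0160% at 24 h. With 3 libraries a group, this does not show that the responses were alike.

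**Figure D2:**
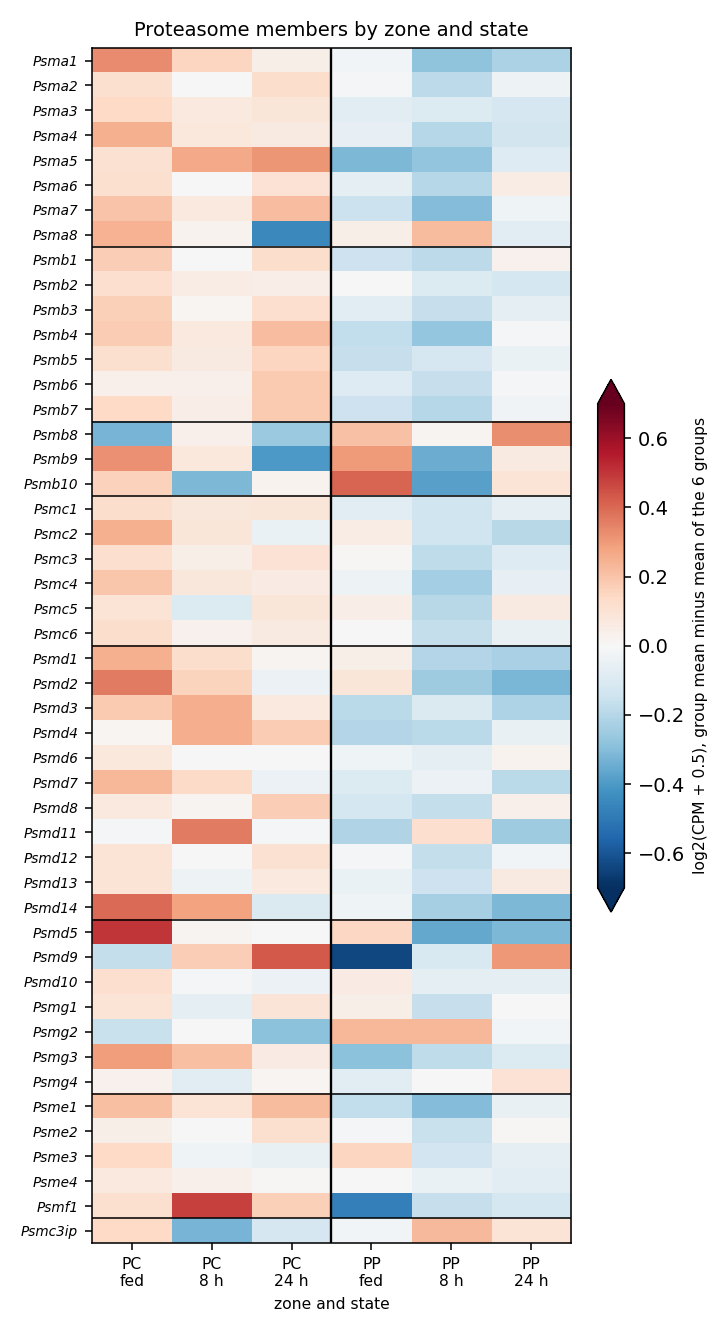
Heat map of the 48 members tested (rows, grouped by role) in the 6 groups (columns), as the group mean of log2(CPM + 0.5) minus the mean of the 6 groups; red is higher and blue lower. The 3 pericentral columns on the left are mostly red and the 3 periportal ones mostly blue.

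The alpha ring forms the gated ends of the core. Its 8 members summed to 521 to 626 CPM in pericentral and 419 to 505 CPM in periportal libraries, a ratio of 1.19 with no overlap. On average 7 of 8 were called lower on the periportal side (all genes 9.96%), all but the testis subunit Psma8 (at most 1.10 CPM). Psma5 was at 48.5, 53.2 and 54.5 CPM in fed pericentral libraries, 64.5, 55.9 and 54.3 after 8 h and 56.9, 58.5 and 65.0 after 24 h. Periportal Psma5 was at 36.3, 38.0 and 42.0 CPM fed, 45.4, 39.3 and 35.5 after 8 h and 41.2, 45.8 and 49.0 after 24 h. Every pericentral library was above every periportal library of the same state. The zones differed on the log2 scale by -0.46 (SE 0.06, adjusted p = 3.89e-05 by edgeR, n = 9 per zone) on average and -0.43, -0.54 and -0.41 in the 3 states. Psma5 also rose with 24 h of fasting, by 0.22 (SE 0.08, adjusted p = 0.0337), a call lost without the filter on low counts and without fed pericentral replicate 1 or 2, fed periportal replicate 1 or 2, 24 h pericentral replicate 3 or 24 h periportal replicate 2 or 3. Of its 31-base words, 61% also occur in the predicted gene Gm8394, which never exceeded 0.0410 CPM.

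Psma1, another alpha subunit, differed by zone and fell with fasting. In pericentral libraries Psma1 was at 79.2, 92.9 and 88.7 CPM fed, 79.1, 76.2 and 74.6 after 8 h and 69.7, 74.6 and 68.3 after 24 h. Periportal Psma1 was at 66.9, 66.7 and 70.6 CPM fed, 58.8, 61.2 and 50.6 after 8 h and 55.0, 62.2 and 60.3 after 24 h. Fed libraries were above both fasted groups of their zone, and pericentral above periportal libraries in every state. The zone difference was -0.35 (SE 0.05, adjusted p = 8.08e-05), and the change averaged over zones -0.22 (SE 0.06, adjusted p = 0.013) after 8 h and -0.25 (SE 0.06, adjusted p = 0.00486) after 24 h.

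Psma7, also of the alpha ring, was at 66.4, 81.0 and 80.3 CPM in fed pericentral libraries, 70.3, 70.1 and 66.2 after 8 h and 68.8, 73.5 and 87.8 after 24 h. Periportal Psma7 was at 54.3, 62.2 and 61.0 CPM fed, 53.5, 56.3 and 49.7 after 8 h and 57.7, 67.1 and 68.9 after 24 h. The zones were apart when fed and after 8 h and touched after 24 h. The log2 fold change between zones was -0.33 (SE 0.06, adjusted p = 0.00104) on average. Psma2, Psma3, Psma4 and Psma6 had mean differences of -0.16, -0.20, -0.26 and -0.14.

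The standard beta ring carries the protease sites on Psmb5 (chymotrypsin-like), Psmb6 (caspase-like) and Psmb7 (trypsin-like). Of 7 members, 5 were called lower on the periportal side on average (all genes 9.96%), Psmb2 and Psmb6 not. No standard beta subunit is among the members named above that rose or fell with fasting. The summed level was 567 to 724 CPM in pericentral and 512 to 634 CPM in periportal libraries, overlapping only between states, with a ratio of 1.17. Psmb5 was at 69.3, 80.0 and 93.8 CPM in fed pericentral libraries, 74.6, 77.0 and 82.5 after 8 h and 82.2, 79.5 and 86.5 after 24 h. Periportal Psmb5 was at 64.8, 67.4 and 67.7 CPM fed, 67.2, 69.8 and 68.4 after 8 h and 65.7, 77.8 and 73.4 after 24 h. In each state the lowest pericentral library was above the highest periportal one. The zone difference was -0.22 (SE 0.06, adjusted p = 0.00918). The predicted gene Gm3375, which is not in the table, shares 71.7% of the 31-base words of Psmb5.

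Psmb7 was at 124, 162 and 137 CPM in fed pericentral libraries, 119.9, 139.6 and 136 after 8 h and 143, 140.5 and 150.3 after 24 h. Periportal Psmb7 was at 111, 119.9 and 113 CPM fed, 105, 115 and 113 after 8 h and 116, 129.9 and 129.6 after 24 h. The zones did not overlap within a state, and the difference was -0.25 (SE 0.06, adjusted p = 0.00394). Psmb7 overlaps Nek6 on the opposite strand over 11.8% of its exon bases. Nek6 was at 17.7 to 55.8 CPM, and the use of strand is not given, so reads of Psmb7 and Nek6 may not be separated. Psmb6 was at 84.5, 102 and 111 CPM in fed pericentral libraries, 91.3, 99.6 and 104 after 8 h and 101, 109.5 and 118 after 24 h. Periportal Psmb6 was at 85.5, 92.1 and 92.6 CPM fed, 85.7, 90.9 and 81.1 after 8 h and 84.4, 106 and 97.1 after 24 h. Its zones overlapped in fed and 24 h fasted mice, and the difference of -0.17 (SE 0.06, adjusted p = 0.0568) did not pass the test.

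Psmb4, a beta subunit without a protease site, was at 130.0, 169 and 179.6 CPM in fed pericentral libraries, 151, 149 and 139 after 8 h and 153, 157 and 178 after 24 h. Periportal Psmb4 was at 117, 126 and 128 CPM fed, 118, 121 and 109 after 8 h and 132, 144 and 139 after 24 h. Its zones were apart in every state, with a difference of -0.31 (SE 0.06, adjusted p = 0.00144), the largest of the standard beta ring.

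**Figure D3:**
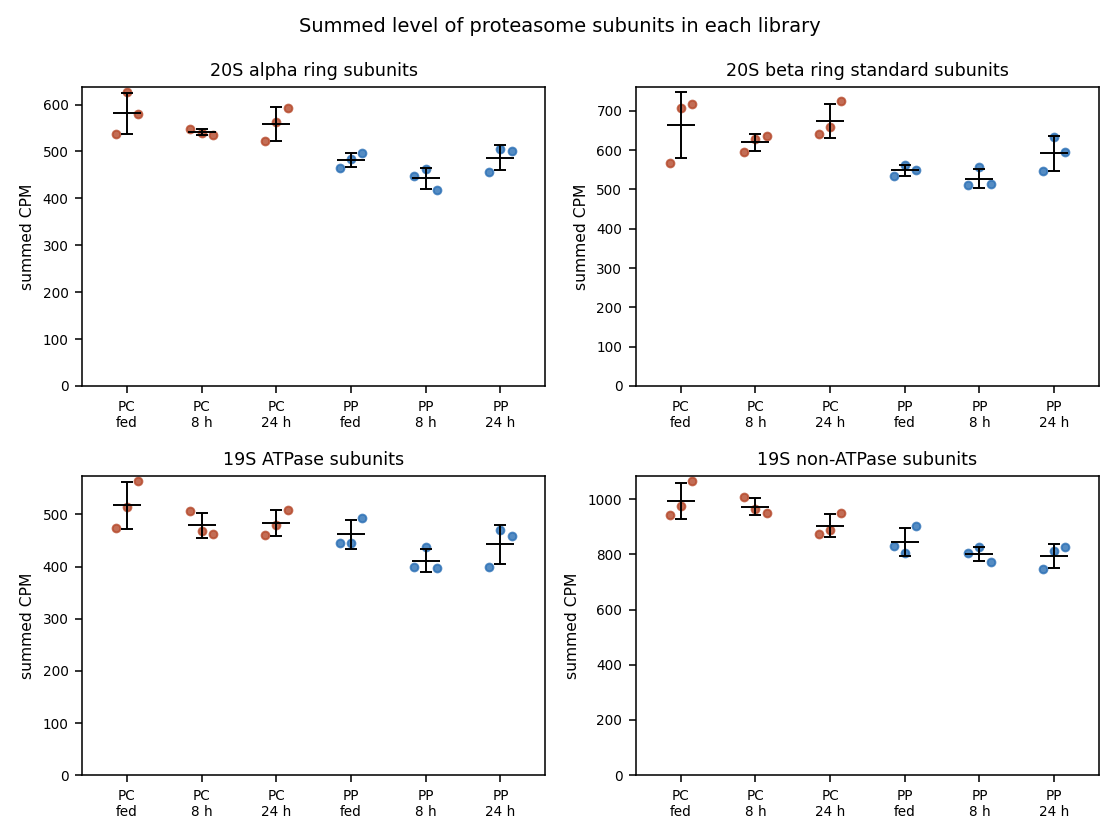
Summed CPM of 4 roles in each library (points) with the mean and SD of 3 libraries (bars), pericentral (PC) groups in red and periportal (PP) groups in blue, fed and after 8 h and 24 h of fasting. Pericentral alpha ring sums (521 to 626) lie above all periportal ones (419 to 505). Sums of the standard beta ring and of the 19S non-ATPases overlap between zones only across states. Those of the 19S ATPases overlap also within fed and within 24 h fasted mice.

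The inducible subunits Psmb8, Psmb9 and Psmb10, which replace Psmb5, Psmb6 and Psmb7 in the immunoproteasome, were low and passed no zone test. Per kilobase of transcript, their medians over 18 libraries were 6.38, 2.66 and 13.0 CPM, against 82.3, 119 and 109 CPM for Psmb5, Psmb6 and Psmb7. Whether their zone differences differ from those of the standard subunits was not tested. All 3 were above 0 on the log2 scale when fed and after 24 h and below 0 after 8 h, and their summed level was 18.8 to 37.5 CPM in pericentral and 19.6 to 44.6 CPM in periportal libraries. The markers of leukocytes, whose immunoproteasome is constitutive, ranged as given above, up to 16.6 CPM in a periportal library. Their part in the levels of these subunits was not tested.

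Psmb10 was at 16.4, 19.2 and 19.1 CPM in fed pericentral libraries, 18.2, 12.1 and 9.86 after 8 h and 16.9, 17.2 and 15.5 after 24 h. Periportal Psmb10 was at 24.2, 22.0 and 19.1 CPM fed, 13.2, 15.1 and 9.46 after 8 h and 18.7, 15.6 and 18.1 after 24 h. All periportal 8 h libraries were below the fed and 24 h ones, while 1 pericentral 8 h library lay among the fed ones. It fell by 0.62 on the log2 scale (SE 0.13, adjusted p = 0.00245) after 8 h, averaged over zones, and its change after 24 h was -0.23 (SE 0.13, adjusted p = 0.198). The periportal change of -0.79 (adjusted p = 0.0104) was not called without fed periportal replicate 1 or 8 h periportal replicate 3.

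Psmb8 was at 5.77, 8.86 and 8.76 CPM in fed pericentral libraries, 13.1, 11.7 and 6.46 after 8 h and 11.1, 9.38 and 4.89 after 24 h. Periportal Psmb8 was at 14.2, 10.8 and 9.33 CPM fed, 9.93, 11.7 and 8.25 after 8 h and 12.7, 11.8 and 12.3 after 24 h. The 8 h and 24 h pericentral libraries spread from 6.46 to 13.1 and from 4.89 to 11.1 CPM, and the zone difference of 0.34 (SE 0.16, adjusted p = 0.169) did not pass. Psmb9 was at 3.91, 4.13 and 4.83 CPM in fed pericentral libraries, 5.90, 3.58 and 2.01 after 8 h and 2.62, 3.64 and 1.38 after 24 h. Periportal Psmb9 was at 6.23, 2.92 and 4.04 CPM fed, 2.79, 3.38 and 1.63 after 8 h and 2.85, 3.62 and 4.14 after 24 h. Its groups overlapped between zones in every state, and no contrast was called.

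**Figure D4:**
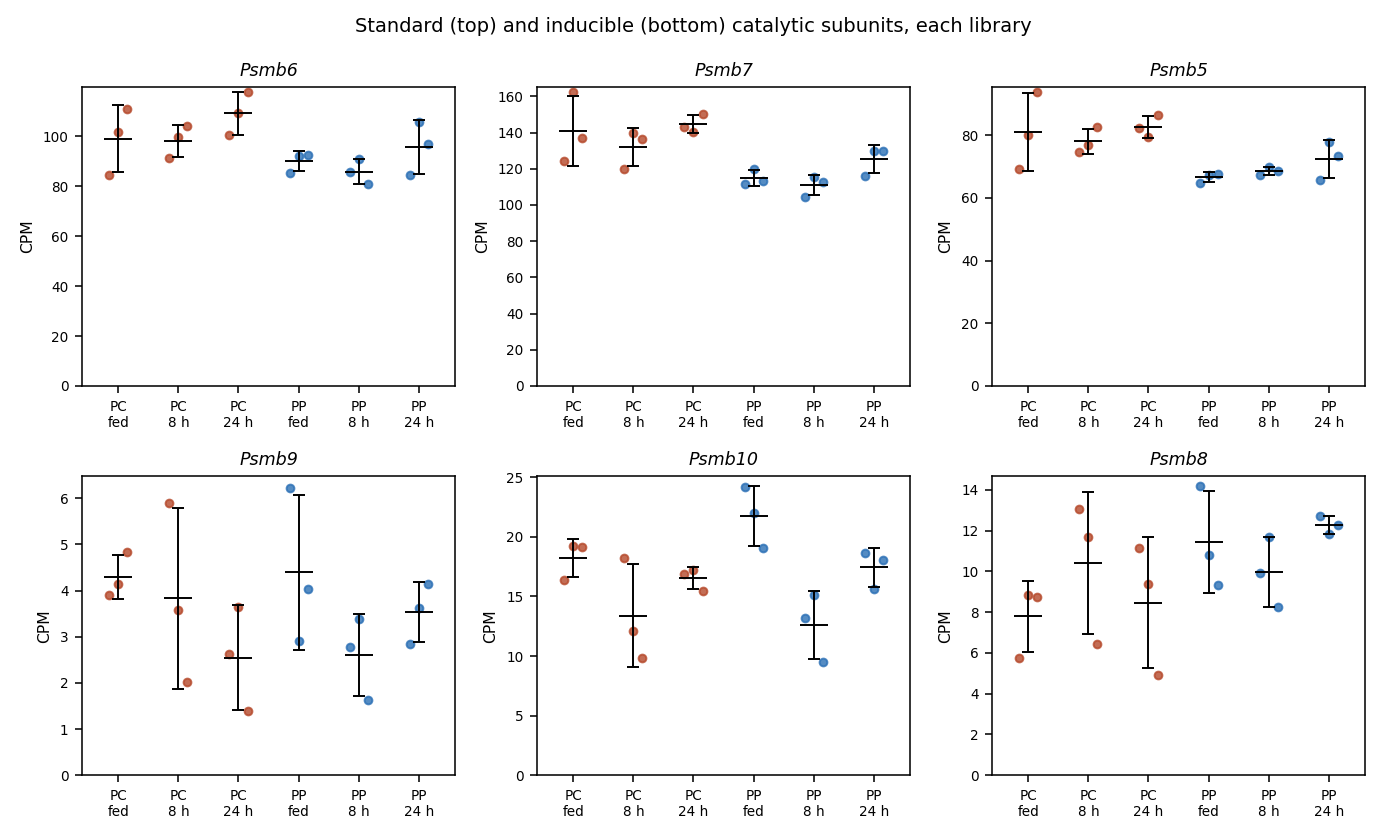
CPM of the standard protease subunits Psmb6, Psmb7 and Psmb5 (top) and the inducible subunits that replace them, Psmb9, Psmb10 and Psmb8 (bottom), in each library (points) with the mean and SD of 3 libraries (bars), pericentral (PC) and periportal (PP), fed and after 8 h and 24 h of fasting. Each panel has its own axis from 0; the upper row shows higher pericentral groups for Psmb5 and Psmb7, and Psmb10 is low in the periportal 8 h group.

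The 19S ATPases, which unfold substrates, summed to 461 to 564 CPM in pericentral and 398 to 494 CPM in periportal libraries, with overlap and a ratio of 1.12. Psmc1, Psmc2 and Psmc4 were called lower on the periportal side on average, 3 of 6 (all genes 9.96%). Psmc2 was at 89.4, 86.0 and 103 CPM in fed pericentral libraries, 87.0, 79.1 and 81.2 after 8 h and 72.0, 75.4 and 78.0 after 24 h. Periportal Psmc2 was at 79.4, 74.7 and 88.0 CPM fed, 71.5, 71.9 and 68.3 after 8 h and 60.3, 71.4 and 72.3 after 24 h. In both zones the 24 h libraries were below the fed ones, and zones overlapped when fed and after 24 h. It fell by 0.27 (SE 0.07, adjusted p = 0.00364) after 24 h, averaged over zones, and differed between zones by -0.19 (SE 0.05, adjusted p = 0.0179). Psmc5, named after its values were seen, fell by 0.23 after 8 h (SE 0.07, adjusted p = 0.0239), a call lost without fed pericentral or periportal replicate 3, 8 h pericentral replicate 3 or 8 h periportal replicate 1.

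The non-ATPase subunits of the 19S particle bind ubiquitin, hold its deubiquitinase and build its lid. All 11 had a negative zone difference, and 8 were called lower (all genes 9.96%), all but Psmd6, Psmd12 and Psmd13. The summed level was 874 to 1066 CPM in pericentral and 746 to 902 CPM in periportal libraries, overlapping only between states, with a ratio of 1.18. Psmd3, a lid subunit, was at 86.3, 86.5 and 107 CPM in fed pericentral libraries, 111, 90.9 and 92.0 after 8 h and 85.6, 84.7 and 86.9 after 24 h. Periportal Psmd3 was at 68.4, 71.3 and 75.1 CPM fed, 82.8, 71.0 and 75.1 after 8 h and 73.8, 68.0 and 69.0 after 24 h. It was the only member with all 9 pericentral above all 9 periportal libraries (all genes 1.32%). Its zone difference was -0.34 (SE 0.06, adjusted p = 0.000341), and its averaged changes were 0.08 (adjusted p = 0.45) after 8 h and -0.07 (adjusted p = 0.453) after 24 h.

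Psmd14, the deubiquitinase that strips ubiquitin chains from substrates, showed both a zone difference and a fall with fasting. Within a zone, its step from 8 h to 24 h was called in pericentral hepatocytes only. Pericentral Psmd14 was at 38.7, 41.5 and 42.1 CPM fed, 37.9, 38.6 and 36.4 after 8 h and 28.6, 29.4 and 27.9 after 24 h. Periportal Psmd14 was at 27.9, 29.9 and 32.9 CPM fed, 25.1, 29.2 and 24.4 after 8 h and 24.1, 26.5 and 23.5 after 24 h. The 24 h pericentral libraries were below all other pericentral ones and reached the range of the fed and 8 h periportal ones. Within each state, the pericentral libraries of Psmd14 were all above the periportal ones. The change after 24 h was -0.51 (SE 0.09, adjusted p = 0.000709) in pericentral and -0.29 (SE 0.09, adjusted p = 0.0318) in periportal hepatocytes. The difference of these changes, 0.22 (SE 0.13), had an adjusted p of 0.722. The periportal call was lost without the filter on low counts, when only its 2 groups were fitted and without fed periportal replicate 2 or 3 or 24 h periportal replicate 1 or 3. Between zones Psmd14 differed by -0.39 on average (SE 0.05, adjusted p = 3.38e-05), and by -0.21 (adjusted p = 0.231) after 24 h.

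Psmd2, the base subunit at which shuttle receptors dock, fell with fasting. Pericentral Psmd2 was at 207, 209 and 230.1 CPM fed, 199, 184 and 178 after 8 h and 160.1, 168 and 161 after 24 h. Periportal Psmd2 was at 182, 162 and 191 CPM fed, 140.2, 148 and 134 after 8 h and 131, 134 and 137 after 24 h. The 3 pericentral groups did not overlap, while on the periportal side both fasted groups lay below the fed one and overlapped each other. After 24 h the change was -0.40 (SE 0.08, adjusted p = 0.00273) in pericentral and -0.41 (SE 0.08, adjusted p = 0.00274) in periportal hepatocytes, and the zone difference -0.32 (SE 0.05, adjusted p = 0.000132). Of its 31-base words, 31.6% occur in Gm5422, which had at most 0.110 CPM.

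Psmd7, the partner of Psmd14 in the lid, was at 76.8, 72.8 and 89.3 CPM in fed pericentral libraries, 75.4, 72.0 and 74.7 after 8 h and 62.8, 63.8 and 70.2 after 24 h. Periportal Psmd7 was at 66.8, 58.6 and 64.4 CPM fed, 62.9, 70.0 and 64.0 after 8 h and 53.4, 62.4 and 62.0 after 24 h. The zones were apart in each state, by -0.22 on average (SE 0.05, adjusted p = 0.00759), and the averaged 24 h change was -0.19 (SE 0.07, adjusted p = 0.0361), a call lost without the filter on low counts, when only its groups were fitted and without fed pericentral replicate 3, fed periportal replicate 1 or 3, 24 h pericentral replicate 1 or 2 or 24 h periportal replicate 1.

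Psmd11, a lid subunit that braces the 19S particle against the core, was chosen after its values were seen because it was high at 8 h only. Pericentral Psmd11 was at 85.2, 74.7 and 89.4 CPM fed, 109, 106 and 109 after 8 h and 76.4, 80.7 and 94.1 after 24 h. Periportal Psmd11 was at 64.8, 69.8 and 84.2 CPM fed, 108, 82.6 and 84.0 after 8 h and 71.1, 73.4 and 66.8 after 24 h. The 8 h pericentral libraries were above all other pericentral ones, and the fed and 8 h periportal ranges overlapped. It rose by 0.35 (SE 0.08, adjusted p = 0.00454) after 8 h, averaged over zones, and fell by 0.37 (SE 0.08, adjusted p = 0.0049) from 8 h to 24 h, and both calls stood under every alternative. The 8 h animals were also killed at another clock hour.

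Of the 7 assembly factors, Psmd5 fell and Psmd9 rose with fasting, and the other 5 passed no fed-to-fasted test. Psmd5 and Psmd9 are both chaperones of the 19S base that hold ATPases before the ring closes. Psmd5 (ENSMUSG00000026869, chr2:34849734-34874968 in GRCm38) was at 46.1, 44.6 and 47.3 CPM in fed pericentral libraries, 31.3, 33.0 and 34.2 after 8 h and 29.7, 34.4 and 33.4 after 24 h. Periportal Psmd5 was at 35.7, 35.3 and 36.4 CPM fed, 26.2, 26.0 and 23.3 after 8 h and 25.8, 27.5 and 24.6 after 24 h. In both zones the fed libraries stood above all fasted ones, and in every state the pericentral ones above the periportal ones. The 8 h change was -0.49 (SE 0.08, adjusted p = 0.000627) in pericentral and -0.51 (SE 0.08, adjusted p = 0.000585) in periportal hepatocytes, and the 24 h change -0.50 and -0.46. From 8 h to 24 h the averaged change was 0.02 (SE 0.06, adjusted p = 0.882). Psmd5 was the only member called in every fed-to-fasted contrast in both zones, and these calls stood under every alternative.

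Psmd9 (ENSMUSG00000029440, chr5:123169413-123250131 in GRCm38) rose. Pericentral Psmd9 was at 31.5, 34.0 and 33.0 CPM fed, 33.2, 54.1 and 40.2 after 8 h and 47.6, 48.0 and 54.6 after 24 h. Periportal Psmd9 was at 20.6, 25.2 and 25.3 CPM fed, 31.2, 34.9 and 37.0 after 8 h and 39.3, 50.5 and 48.0 after 24 h. The 3 periportal groups did not overlap, while the pericentral 8 h group overlapped both the fed and the 24 h pericentral ranges. Averaged over zones it rose by 0.45 (SE 0.10, adjusted p = 0.00366) after 8 h. After 24 h the log2 fold change was 0.61 (SE 0.15, adjusted p = 0.00703) in pericentral and 0.96 (SE 0.15, adjusted p = 0.000333) in periportal hepatocytes, the largest called rise of any member, and the difference of these changes, 0.35 (SE 0.21), had an adjusted p of 0.741. The zones were apart when fed and overlapped after 8 h and 24 h, and the averaged zone difference was -0.30 (SE 0.08, adjusted p = 0.0182). Psmd9 overlaps the antisense gene Gm26745 over 25.5% of its exon bases, and the use of strand is not given in the sources used here, so reads of the 2 genes may not be separated.

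Of the chaperones of the core, Psmg3 was lower on the periportal side (-0.40, SE 0.08, adjusted p = 0.00161) and Psmg2, which pairs with Psmg1, was higher. Psmg2, outside the naming rule, is given because it is the lone call in that direction. Pericentral Psmg2 was at 6.01, 6.26 and 5.92 CPM fed, 7.62, 6.46 and 6.34 after 8 h and 5.90, 5.99 and 4.65 after 24 h. Periportal Psmg2 was at 8.42, 7.91 and 7.90 CPM fed, 6.62, 9.20 and 8.62 after 8 h and 6.60, 6.69 and 6.85 after 24 h. The zones overlapped after 8 h alone, and the difference was 0.32 (SE 0.08, adjusted p = 0.00961). Psmg1, Psmg4 and Psmd10 (gankyrin) had mean zone differences of -0.08, 0.03 and -0.05 and passed no test.

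**Figure D5:**
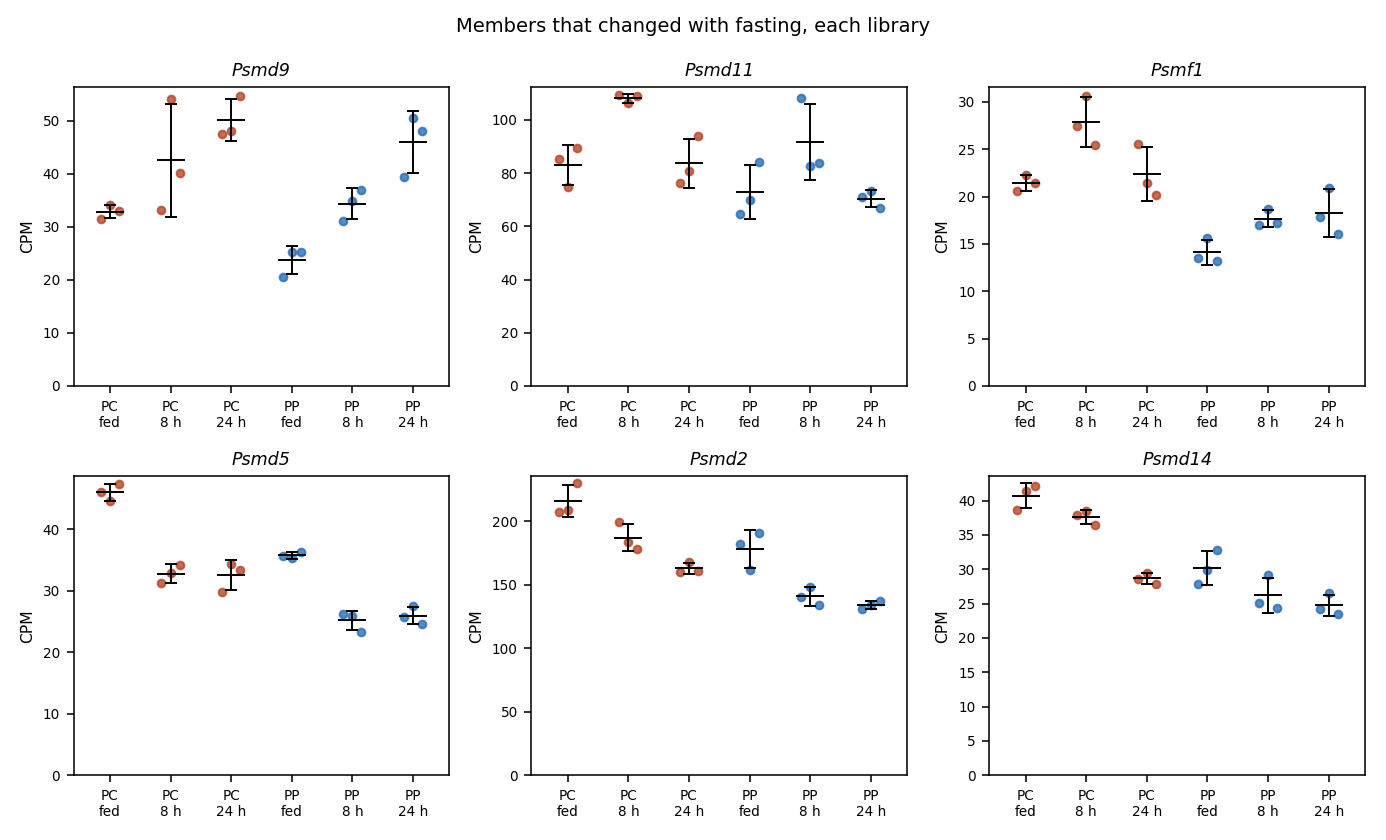
CPM of 6 members called in a fasting contrast in each library (points) with the mean and SD of 3 libraries (bars), pericentral (PC) in red and periportal (PP) in blue, fed and after 8 h and 24 h of fasting, each axis from 0. Psmd9 climbs from 20.6 to 34.0 CPM in fed libraries to 39.3 to 54.6 CPM after 24 h, Psmd11 is high after 8 h, and Psmd5, Psmd2 and Psmd14 are lower after 24 h than in fed libraries of the same zone.

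Among the activators and inhibitors, 2 of 5 tested were called lower on the periportal side on average, Psme1 and Psmf1 (all genes 9.96%). Psmf1 encodes PI31, which inhibits the core in vitro and helps to transport proteasomes. Pericentral Psmf1 was at 20.6, 22.2 and 21.4 CPM fed, 27.4, 30.6 and 25.4 after 8 h and 25.6, 21.4 and 20.1 after 24 h. Periportal Psmf1 was at 13.5, 15.6 and 13.2 CPM fed, 17.0, 18.7 and 17.2 after 8 h and 17.8, 21.0 and 16.0 after 24 h. The zones were apart in fed and 8 h fasted mice and overlapped after 24 h. The zone difference was -0.52 (SE 0.07, adjusted p = 3.12e-05) on average and -0.60, -0.66 and -0.29 in the 3 states, the last not called (adjusted p = 0.204). After 8 h it rose by 0.35 averaged over zones (SE 0.08, adjusted p = 0.00438). The 24 h change was 0.06 (adjusted p = 0.749) in pericentral and 0.37 (adjusted p = 0.0361) in periportal hepatocytes, and the latter was lost without the filter on low counts, when only its 2 groups were fitted and without fed periportal replicate 1 or 3 or 24 h periportal replicate 1 or 2.

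Psme1 and Psme2 encode the partners of the interferon-inducible PA28 ring. Pericentral Psme1 was at 59.2, 71.7 and 69.7 CPM fed, 63.8, 57.7 and 63.0 after 8 h and 77.4, 61.1 and 63.9 after 24 h. Periportal Psme1 was at 54.0, 50.7 and 48.5 CPM fed, 48.4, 49.7 and 41.6 after 8 h and 59.4, 49.5 and 57.7 after 24 h. Its zones were apart in every state, by -0.36 (SE 0.06, adjusted p = 0.000567). Pericentral Psme2 was at 49.6, 67.8 and 62.6 CPM fed, 62.2, 53.2 and 58.8 after 8 h and 66.9, 64.2 and 56.9 after 24 h. Periportal Psme2 was at 57.8, 58.2 and 55.8 CPM fed, 47.3, 57.2 and 51.2 after 8 h and 57.2, 57.1 and 60.1 after 24 h. The zones of Psme2 overlapped in every state, with a difference of -0.11 (SE 0.06, adjusted p = 0.239). Whether the zone differences of the 2 partners differ was not tested.

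Psme3 encodes the nuclear PA28 gamma ring. Pericentral Psme3 was at 63.6, 61.2 and 55.5 CPM fed, 54.0, 51.0 and 55.0 after 8 h and 55.4, 49.7 and 52.7 after 24 h. Periportal Psme3 was at 59.8, 63.0 and 58.6 CPM fed, 52.1, 50.2 and 46.5 after 8 h and 48.8, 57.1 and 50.4 after 24 h. Fed libraries were above fasted ones in each zone, with averaged changes of -0.23 (SE 0.06, adjusted p = 0.00832) after 8 h and -0.20 (SE 0.06, adjusted p = 0.0135) after 24 h. The zone difference was -0.04 (SE 0.05, adjusted p = 0.673).

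Psme4, the single-chain activator PA200, was at 146, 164 and 137 CPM in fed pericentral libraries, 137, 147 and 152 after 8 h and 138, 143 and 147 after 24 h. Periportal Psme4 was at 143, 142 and 140.1 CPM fed, 133, 139 and 139 after 8 h and 133, 134 and 137 after 24 h. Its groups overlapped in fed and 8 h fasted mice, and it passed no test, with a zone difference of -0.08 (SE 0.05, adjusted p = 0.257). Psmc3ip, which is not a subunit, was barely detected. It was at 0.518, 0.354 and 0.584 CPM in fed, 0.205, 0.326 and 0.116 in 8 h and 0.313, 0.552 and 0.148 in 24 h pericentral libraries, and at 0.413, 0.439 and 0.294, 0.363, 0.800 and 0.512, and 0.335, 0.624 and 0.414 in the periportal ones. These levels overlapped in all states but 8 h, and no contrast was called.

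Genes that work with the proteasome were set beside its members, from 6 lists. The 76 listed genes found in the table also include the cell type markers given above. Of 12 partners, 4 were lower on the periportal side on average (all genes 9.96%). These were the ubiquitin receptor Adrm1 (-0.39, SE 0.06), the stress-induced adaptor Zfand2a (-0.73, SE 0.09), the deubiquitinase Usp14 (-0.20, SE 0.05) and the proteasome scaffold Ecpas (-0.18, SE 0.05). After 24 h of fasting 3 partners rose, Zfand5 (0.58), Zfand2b (0.43) and Akirin2 (0.32), and 3 fell, Usp14 (-0.31), Txnl1 (-0.34) and Ube3c (-0.19), where 17.0% of all genes rose and 17.5% fell. Among the shuttle receptors, which carry ubiquitinated proteins to the 19S particle, Rad23b and Ubqln2 were lower on the periportal side, and Rad23b, Ubqln1 and Ubqln4 fell after 24 h. The 24 h call of Akirin2 was lost without fed pericentral replicate 1. The calls of Ubqln1 and Ube3c were lost without the filter on low counts, that of Ubqln1 also in a fit of the contrasted groups alone. The call of Ube3c was also lost without fed pericentral replicate 3, fed periportal replicate 1, or replicate 2 of either zone at 24 h. That of Ubqln1 was lost without fed pericentral replicate 3, fed periportal replicate 1 or 3, 24 h pericentral replicate 2, or 24 h periportal replicate 1 or 2.

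Genes of NRF1 activation moved with fasting in both directions. Nfe2l1, the factor itself, had a mean of 139 ± 7.72 CPM (SD, n = 3) in fed, 149 ± 11.8 in 8 h and 173 ± 22.0 in 24 h pericentral libraries, and 111 ± 6.26, 137 ± 21.4 and 144 ± 13.3 CPM in periportal ones. It rose by 0.35 (SE 0.08, adjusted p = 0.00439) after 24 h and was lower on the periportal side (-0.23, SE 0.07, adjusted p = 0.0237), the latter lost without 24 h periportal replicate 2. Averaged over zones, Ddi2, the protease that releases the factor, rose by 0.68 (SE 0.10), and Bach1, a repressor at antioxidant response elements, by 0.61 (SE 0.10). Mean Bach1 went from 32.6 ± 2.91 CPM fed to 62.8 ± 6.86 CPM after 24 h in pericentral libraries. In periportal ones it went from 38.6 ± 3.56 to 46.9 ± 7.29 CPM. Syvn1, the ligase that marks NRF1 for turnover, fell by 1.48 (SE 0.15), and Vcp, the ATPase that extracts NRF1 from the membrane, by 0.34 (SE 0.06). Nfe2l2, the related factor NRF2, fell by 0.52 (SE 0.12), so that 3 of 7 rose and 3 fell after 24 h, where 17.0% of all genes rose and 17.5% fell.

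The ubiquitin gene Ubb rose from 485 ± 47.7 CPM (SD, n = 3) in fed to 932 ± 164 CPM after 24 h in pericentral libraries, and on the periportal side from 355 ± 51.7 to 667 ± 101 CPM, a log2 fold change of 0.93 (SE 0.11, adjusted p = 9.04e-06). The ubiquitin-ribosomal fusion Rps27a rose by 0.28, while the ubiquitin-activating enzymes Uba1 and Uba6 fell by 0.18 and 0.52. The 24 h call of Uba1 was lost without the filter on low counts, in a fit of the contrasted groups alone, and without fed pericentral replicate 1 or 3, fed periportal replicate 1, or replicate 3 of either zone at 24 h. Averaged over states, Ubb was lower on the periportal side (-0.42, all genes 9.96%), while Uba1 (0.17) and Uba6 (0.28) were higher (all genes 10.3%). The zone call of Uba1 was lost without the filter on low counts and without fed pericentral replicate 2, and that of Uba6 without 8 h periportal replicate 2. Fbxo32 (atrogin-1), the ubiquitin ligase of muscle wasting, rose by 1.99 after 8 h and 2.02 after 24 h (SE 0.21 each), averaged over zones. Its fed level was 0.398 ± 0.0722 CPM in pericentral and 0.655 ± 0.294 CPM in periportal libraries. Of 10 genes of antigen presentation, which use proteasome products, 3 were called higher on the periportal side (all genes 10.3%), H2-K1 (0.42), H2-D1 (0.46) and B2m (0.44). The list as a whole had 5 genes above and 5 below 0, with a median of 0.05 and a lowest value of -0.35. These genes are also expressed by leukocytes and endothelial cells, whose markers reached higher levels in periportal libraries, and the part of those cells was not tested. In bulk libraries, fewer cells of a type and less RNA per cell cannot be told apart.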

How the data were processed

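The deposited values are estimated counts for each gene in 18 libraries, made by the authors with kallisto 0.46.0 on mm10 per the submitters' processing notes. The annotation, the step from transcripts to genes and the use of strand are not given in the sources used here. Whether replicates are separate mice is not stated in the labels, so p-values measure only the spread between libraries, which may be technical. Columns were matched to samples by the description labels, and 27566 of 28030 Ensembl identifiers were paired with a symbol. Counts were rounded to whole numbers. In R 4.3.3, edgeR 4.0.16 (filterByExpr, TMM scaling, robust quasi-likelihood fit) was fitted once to all 18 libraries with 1 coefficient per group, and 15 contrasts were tested over 12477 genes, with Benjamini-Hochberg adjustment over all of them. All adjusted p-values in the text come from this fit, SE is the size of the log2 fold change over the square root of F, and CPM include the TMM factors. TMM factors were 0.998 to 1.10 in pericentral and 0.830 to 1.04 in periportal libraries.

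The alternatives were DESeq2 size factors, no filter beyond 1 count, scaling without the 20 most abundant genes, the replicate number as a block, only the groups of the contrast, limma-voom (limma 3.58.1), the Wald test of DESeq2 1.42.0, and leaving out each library. Values in every library are given for the standard and inducible protease subunits, the activators, the member of each role with the smallest adjusted p, and members called in at least 2 contrasts between single groups. The members and lists were chosen with earlier results of these data known. Lengths, overlaps and shared 31-base words come from GENCODE vM21, promoters from RefSeq. Transcript length was that of the longest basic coding transcript, since the authors' effective lengths are not given in the sources used here. The pipeline was tested on simulated data. Replicates were compared by chi-square (38.0 to 128 per degree of freedom), and none was a repeat deposit. Some genes of the associated lists are not reported here.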

Additional observations from a re-analysis of the deposited data

How the results depend on the processing

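The zone difference averaged over states gave 26 to 31 member calls under the 6 alternatives run for it and 22 to 31 when 1 library was left out. No call of a member or list gene reversed under any of them, and 54 of 104 member calls stood under all. Without the filter on low counts the calls numbered 7 between zones in fed mice, 7 after 8 h and 0 after 24 h, 1 for the 8 h change in pericentral hepatocytes, 3 for the 24 h change in periportal ones, and 3 averaged and 0 periportal from 8 h to 24 h. With only the groups of the contrast they were 7, 3 and 0 between zones, 3 for the 8 h periportal, 4 for the 24 h pericentral and 3 for the 24 h periportal change, and 0 for the periportal step from 8 h to 24 h. DESeq2 gave 2 pericentral and 2 periportal calls from 8 h to 24 h, and limma-voom 0 periportal. With the replicate number as a block there were 31 calls between zones on average, 15 in fed mice, 11 after 8 h and 1 after 24 h, and 2 periportal calls from 8 h to 24 h. The labels do not say whether same-numbered pericentral and periportal libraries of a state share a mouse, and the pairing was not used. Deviations from the group means correlated at -0.0112 to 0.165 (median 0.0314) over the 9 such pairs, 3 of them over 0.1. Over 18 pairs with other numbers the median was -0.0397. Because the deviations of a group sum to 0, these medians are not independent and do not settle whether mice were shared. Leaving out 1 library gave 4 to 14 zone calls in fed mice, 5 to 12 after 8 h and 0 to 2 after 24 h. The changes in pericentral and periportal hepatocytes then gave 1 to 3 and 1 to 6 calls after 8 h, 4 to 8 and 3 to 5 after 24 h, and 0 to 2 and 0 to 1 from 8 h to 24 h. The averaged changes gave 8 to 11, 8 to 10 and 2 to 7, and the zone differences of the changes 0. The cause of these moves was not tested. With 3 libraries a group, differences as small as the median zone difference were not callable for every member.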
